A study of Mus musculus with 6 samples.

Results

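The genes described here mark the subsets of dendritic cells, the antigen-presenting leukocytes that sample a tissue and prime T cells. They are Flt3, Zbtb46, Xcr1, Clec9a, Batf3, Irf8, Cd209a, Siglech, Bst2 and Fscn1, 10 genes chosen by name and read by 14 of the 55681 non-control probes of the array. A probe belonged to a gene when its RefSeq accession mapped to that gene. Of the 10 genes, 9 entered the comparison, out of 25777 genes and unnamed transcripts tested, because the Xcr1 probe stood well above background on 1 array only. Each of the 9 was read well above background on all 6 arrays by the probe that stands for it, so none entered through 1 group alone.

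The propolis group consisted of 3 samples from male C57BL/6JHamSlc-ob/ob mice injected intraperitoneally with an ethanol extract of Brazilian propolis, a resin collected by bees, given as 100 mg/kg, 2 injections weekly, over 12 weeks. The vehicle group consisted of 3 samples from mice of the same strain and sex. These mice were given a dilute mixture of DMSO and ethanol, also in 2 injections weekly, over the same 12 weeks. Both groups carry the ob mutation of the leptin gene and become obese, and no lean mice were studied. RNA came from the vascular stromal fraction of mesenteric fat, the mixed cells that collagenase releases from the tissue, after lysis of red cells, without any sort for dendritic cells. Each group's samples are biological replicates per the labels, which give neither the number of mice behind a sample nor their ages.

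Conventional dendritic cells grow under the cytokine FLT3 ligand and fall into a cDC1 subset, which depends on the transcription factors IRF8 and BATF3 and presents material of dead cells to CD8 T cells, and a cDC2 subset, which mainly primes CD4 T cells. Plasmacytoid dendritic cells are a separate kind that secretes type I interferon. On maturation, dendritic cells migrate through lymph vessels to lymph nodes. In obese fat, dendritic cells lie among far more abundant macrophages, with which they share CD11c, encoded by Itgax.

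A promoter window is shown for 3 of the genes that hold a motif of a factor family tied to dendritic cells. They are the window of Cd209a, the member with the lowest p-value, that of Irf8, a transcription factor gene that cDC1 and plasmacytoid cells share, and that of Bst2, the interferon-inducible member. Each runs from 250 bases before to 50 bases after the start of the RefSeq gene in GRCm38.p6 and is written along the gene's own strand, with capitals for motif matches.
Cd209a, chr8:3748935-3749234, minus strand: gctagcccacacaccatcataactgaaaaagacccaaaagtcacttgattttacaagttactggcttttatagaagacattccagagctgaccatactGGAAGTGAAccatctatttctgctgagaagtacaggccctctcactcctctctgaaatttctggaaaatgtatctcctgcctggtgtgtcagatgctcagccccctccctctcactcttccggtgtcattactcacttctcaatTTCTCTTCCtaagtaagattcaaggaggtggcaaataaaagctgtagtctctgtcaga
Irf8, chr8:120736108-120736407, plus strand: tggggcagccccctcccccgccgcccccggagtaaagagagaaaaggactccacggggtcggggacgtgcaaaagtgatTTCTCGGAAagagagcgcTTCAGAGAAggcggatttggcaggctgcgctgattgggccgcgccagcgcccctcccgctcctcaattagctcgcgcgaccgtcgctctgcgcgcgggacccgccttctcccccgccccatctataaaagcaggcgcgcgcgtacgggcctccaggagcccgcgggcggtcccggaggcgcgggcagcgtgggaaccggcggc
Bst2, chr8:71537423-71537722, minus strand: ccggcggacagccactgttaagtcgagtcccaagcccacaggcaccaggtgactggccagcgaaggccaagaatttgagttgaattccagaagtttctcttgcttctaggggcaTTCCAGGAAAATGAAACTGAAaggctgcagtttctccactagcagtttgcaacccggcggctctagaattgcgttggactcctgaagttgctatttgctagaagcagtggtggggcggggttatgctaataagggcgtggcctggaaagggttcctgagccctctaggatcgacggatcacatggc
In these windows 4 motifs were searched on both strands: GAAANNGAA, the core of the element bound by interferon regulatory factors, GGAANNGAA, the core of a composite element of PU.1 with such a factor, TTCNNNGAA, the site of STAT dimers, and TGANTCA, the AP-1 site. The capitals of Cd209a mark 2 matches of the composite core, at position -152 on the strand shown and at position -8 on the opposite strand, counted from the gene start, and 8.24% of 32851 promoter windows hold that core. The capitals of Irf8 mark 2 matches of the STAT site, at positions -171 and -153, and 8.3% of the windows hold 1 or more. The capitals of Bst2 mark 2 overlapping matches of the interferon regulatory factor core, at positions -130 and -124, overlapped by a STAT site at position -136, and 8.56% of the windows hold the interferon core. All 10 genes had a window in the table, 11 in all, since Irf8 has a second start, where none of the 4 motifs was found. Clec9a held the interferon core at position -2 on the opposite strand, Batf3 and Siglech held the STAT site at positions -239 and -123, and Zbtb46 held the AP-1 site, which 7.81% of windows hold, at position -61. The windows of Flt3, Xcr1 and Fscn1 held no match, which says only that these letters are not in these windows.

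The comparison of propolis with vehicle asked whether the genes of these cells differ after the treatment. The members were chosen with earlier results of these data known, so the shares of all genes beside their counts are description only. None of the 9 tested genes passed limma's test at an adjusted p under 0.05, where 0.834% of all genes did. Without adjustment 2 of the 9, Cd209a and Batf3, had a limma p under 0.05, where 11.7% of all genes did. The sizes were modest. Cd209a stood 1.77-fold higher after propolis, Batf3 1.84-fold lower, and Clec9a, Zbtb46, Flt3, Irf8 and Siglech between 1.25-fold and 1.46-fold lower. Of the 9 genes 6 had lower and 3 higher means in propolis, with a median difference of -0.41 on the log2 scale, against -0.0041 for all genes tested, of which 50.4% had lower means. All 9 differences lay between the 5th percentile, -0.89, and the 95th percentile, 0.85, of the differences of all genes. The propolis and vehicle arrays did not overlap for 5 of the 9, Clec9a, Batf3, Irf8, Cd209a and Siglech, where 17.4% of all genes did not overlap. Of these 5, the 4 other than Cd209a were lower after propolis, where 6.62% of all genes were lower without overlap and 10.8% higher without overlap. In RNA of such a mixed, unsorted cell fraction, fewer cells of a type and less RNA per cell cannot be told apart.

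The arrays are 1-colour, and levels below are log2 intensities relative to the 75th percentile of each array, so that a level of 0 is that percentile and a difference of 1 is a 2-fold change. Such levels cannot be set against each other between probes. The 75th percentile of intensity ran from 511.6 to 729.0 in propolis arrays and from 459.4 to 621.1 in vehicle arrays, and 61.1% to 66.7% of spots per array stood well above background. Propolis 1, propolis 2, vehicle 1 and vehicle 2 shared slide 1 and scan 1, and propolis 3 and vehicle 3 shared slide 2 and scan 2. Single arrays stood apart in genes of neighbouring tissue: pancreatic acinar genes averaged -3.60 to -3.11 in propolis, against -3.20, 4.78 and -2.56 in vehicle 1, 2 and 3, and intestinal epithelial genes averaged -1.92 to 0.40 in propolis, against -1.55, -1.40 and 5.27 in vehicle 1, 2 and 3. Genes of stromal progenitors averaged 5.90 to 6.16 in propolis and 5.87 to 6.00 in vehicle.

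**Figure D1:**
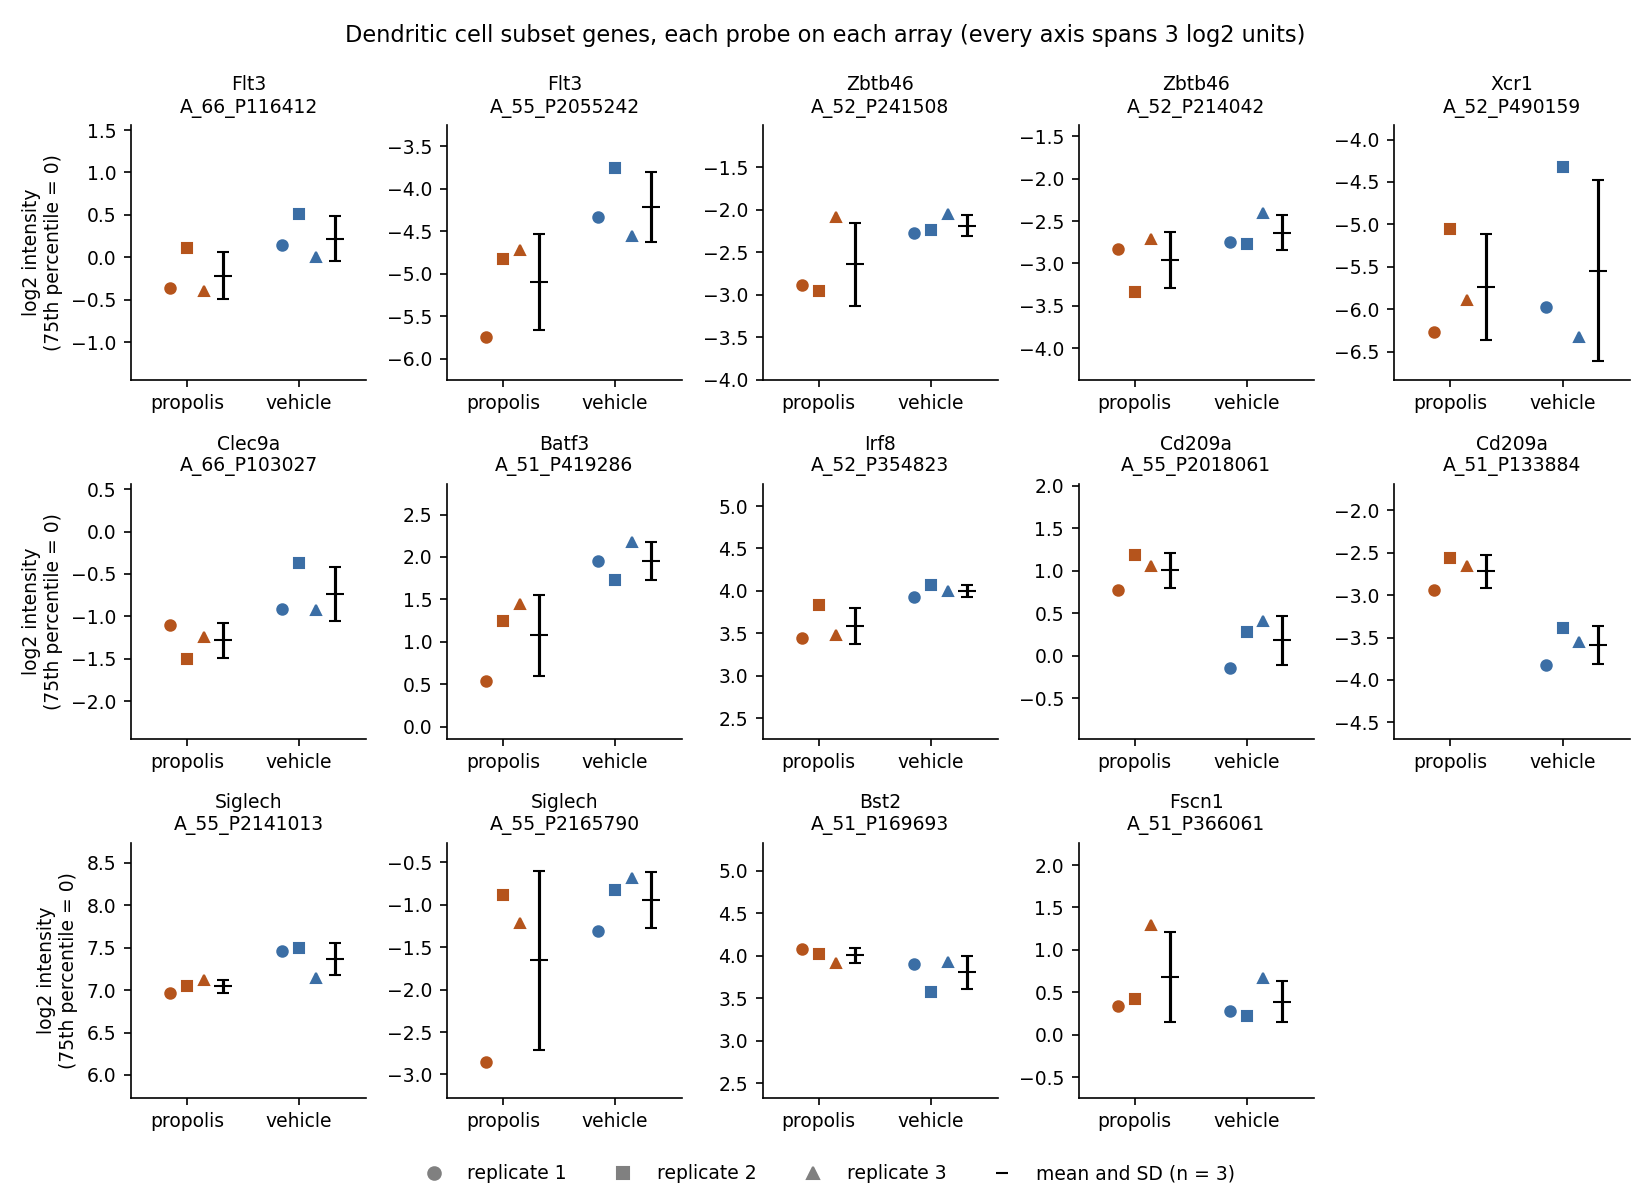
Log2 intensity of each of the 14 probes on each array, relative to the array's 75th percentile, with propolis left of vehicle, 1 marker shape per replicate number, and the mean and SD of the 3 arrays beside each group. Both Cd209a probes are higher on all 3 propolis arrays, from 0.77 to 1.19 against -0.14 to 0.41 in vehicle for the brighter probe, and Batf3 is lower on all 3 propolis arrays, from 0.54 to 1.44 against 1.73 to 2.18 in vehicle.

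Flt3 and Zbtb46 mark conventional dendritic cells as a whole, Flt3 as the receptor of FLT3 ligand, which precursors and mature dendritic cells carry, and Zbtb46 as a zinc finger transcription factor gene that endothelial cells also express. Flt3 was at -0.36, 0.11 and -0.39 in propolis arrays 1, 2 and 3, against 0.15, 0.51 and 0.0019 in vehicle arrays 1, 2 and 3. Propolis 2 lay inside the range of the vehicle arrays, so the groups overlapped. The difference was -0.44 with a 95% confidence interval of -0.99 to 0.12 (limma adjusted p = 0.556). A second, dimmer Flt3 probe differed by -0.88, with propolis arrays at -5.74, -4.83 and -4.71 and vehicle arrays at -4.33, -3.75 and -4.55. Its groups did not overlap, it was well above background on 2 of 3 propolis and 3 of 3 vehicle arrays, and its adjusted p among all probes was 0.428. Within slides the first Flt3 probe differed by -0.45 on slide 1 and -0.40 on slide 2.

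Zbtb46 was at -2.89, -2.96 and -2.09 in propolis arrays, against -2.27, -2.24 and -2.05 in vehicle arrays. Propolis 1 and propolis 2 lay below all vehicle arrays and propolis 3 among them. The difference was -0.46, with an interval of -1.11 to 0.20 (limma adjusted p = 0.615), and it was -0.66 on slide 1 and -0.04 on slide 2. The second Zbtb46 probe differed by -0.32, with propolis arrays at -2.83, -3.33 and -2.72 and vehicle arrays at -2.74, -2.77 and -2.40. Genes of blood endothelium, which could also supply Zbtb46 transcripts, had lower means in 8 of 8 measured, none past the threshold. Their mean levels were 1.69, 1.11 and 2.37 in propolis arrays and 2.46, 2.11 and 2.77 in vehicle arrays, so both groups ordered their arrays in nearly the way Zbtb46 did. The part of endothelial transcripts in the Zbtb46 values was not tested.

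The cDC1 genes Clec9a, Batf3 and Irf8 were each lower on every propolis array than on any vehicle array, by differences of -0.55, -0.88 and -0.41, none of them past the threshold. Batf3 encodes a basic leucine zipper factor that the cDC1 subset needs to develop. It was at 0.54, 1.25 and 1.44 in propolis arrays, against 1.95, 1.73 and 2.18 in vehicle arrays. Propolis 1 was the lowest array, and without it the difference shrank to -0.61. With all arrays the difference was -0.88, with an interval of -1.56 to -0.19 (limma adjusted p = 0.293, and 0.0195 before adjustment), and it was -0.95 on slide 1 and -0.73 on slide 2.

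Clec9a encodes a C-type lectin receptor through which cDC1 take up material of dead cells. It was at -1.10, -1.51 and -1.24 in propolis arrays, against -0.91, -0.37 and -0.92 in vehicle arrays. Vehicle 2 stood highest, and the gap between propolis 1 and vehicle 3 was narrow. The difference was -0.55, with an interval that ends at 0.00 (-1.09 to 0.00, limma adjusted p = 0.427), and it was -0.37 without vehicle 2. Irf8, the interferon regulatory factor that cDC1 and plasmacytoid cells share with monocytes, macrophages and B cells, was at 3.45, 3.83 and 3.48 in propolis arrays and at 3.92, 4.07 and 4.002 in vehicle arrays. Its vehicle arrays lay close together, and propolis 2 was the propolis array nearest to them. The difference was -0.41, with an interval of -0.85 to 0.02 (limma adjusted p = 0.452), -0.36 on slide 1 and -0.52 on slide 2.

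Xcr1, the chemokine receptor that defines cDC1, was not measurable at this signal. Its probe lay at -6.26, -5.05 and -5.90 in propolis arrays and at -5.98, -4.33 and -6.33 in vehicle arrays, and vehicle 2 was the only array on which it was well above background. The lowest signal well above background was -5.82, -5.41 and -5.75 in the propolis arrays and -5.35, -5.26 and -5.48 in the vehicle arrays, so no fold is given.

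**Figure D2:**
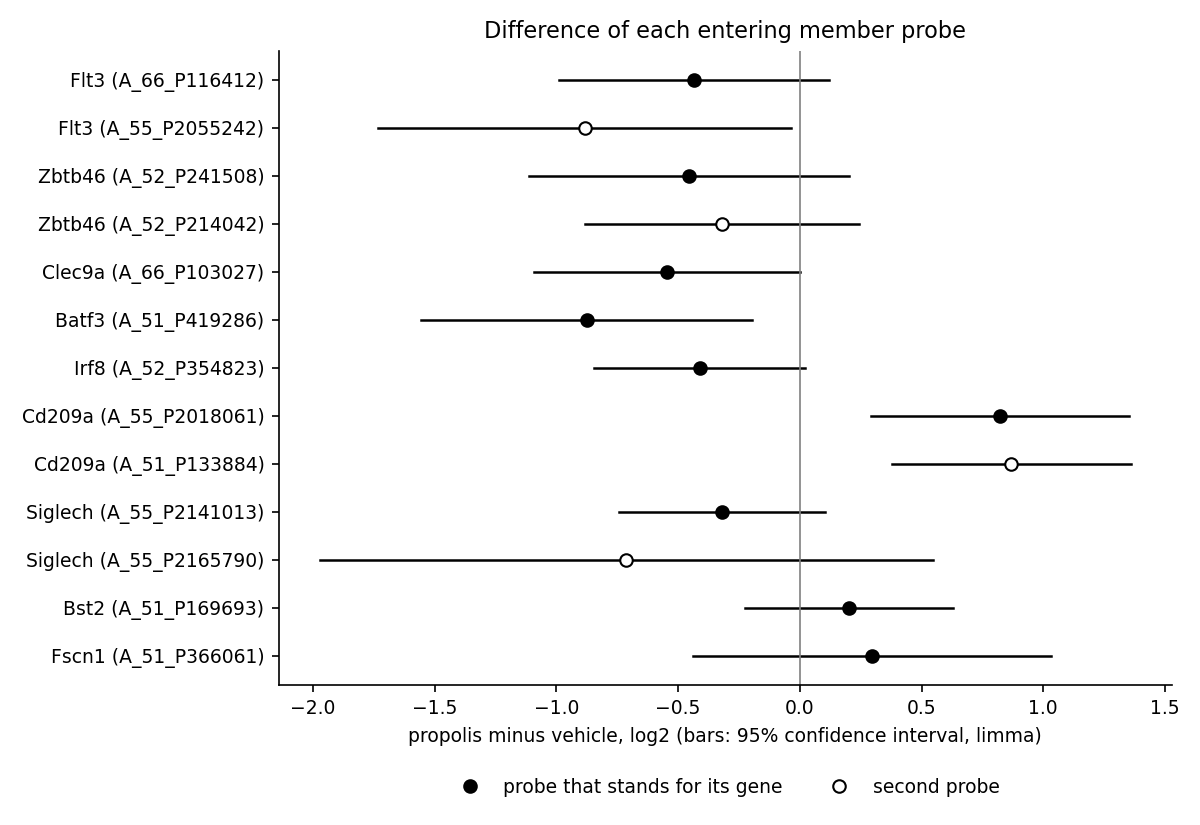
Difference between propolis and vehicle on the log2 scale for the 13 member probes that entered, with 95% confidence intervals from limma, filled points for the probe that stands for its gene and open points for second probes. The intervals of Batf3 and of both Cd209a probes lie off 0, as does that of the dimmer Flt3 probe, and none of the 13 passed after adjustment, where 0.727% of all probes did.

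Cd209a, a C-type lectin gene related to human DC-SIGN and expressed by cDC2 and by dendritic cells derived from monocytes, was the member with the lowest p-value and had a higher mean after propolis. Its brighter probe was at 0.77, 1.19 and 1.05 in propolis arrays, against -0.14, 0.28 and 0.41 in vehicle arrays. Its dimmer probe was at -2.94, -2.56 and -2.66 in propolis arrays, against -3.82, -3.39 and -3.56 in vehicle arrays. On both probes every propolis array was above every vehicle array. The brighter probe differed by 0.82, with an interval of 0.29 to 1.35 (limma adjusted p = 0.203, and 0.00869 before adjustment), and the dimmer probe by 0.87, with an interval of 0.38 to 1.36 (limma adjusted p among all probes 0.165). The brighter probe differed by 0.91 on slide 1 and 0.65 on slide 2, and the dimmer by 0.85 and 0.90. The p ranked Cd209a within the lowest 4.28% of all genes tested and Batf3 within the lowest 6.66%.

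The related lectin genes Cd209e and Cd209d were also higher on average, without passing. Cd209e was at -1.07, -1.90 and -1.38 in propolis arrays and at -2.57, -2.82 and -3.12 in vehicle arrays, a difference of 1.39 (limma adjusted p = 0.0980) with no overlap. Cd209d differed by 0.34 (limma adjusted p = 0.619) and its groups overlapped. These genes are close relatives, and cross-hybridisation between their probes was not tested. Macrophage genes, which mark the other main source of such lectins, were higher in 6 and lower in 4 of 10 measured, and averaged 4.05 to 4.27 in propolis and 3.83 to 4.26 in vehicle.

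Neither plasmacytoid gene passed, and their mean differences had opposite signs. Siglech encodes a sialic acid-binding lectin of mouse plasmacytoid cells. Its brighter probe was at 6.97, 7.04 and 7.12 in propolis arrays, against 7.46, 7.50 and 7.14 in vehicle arrays. The groups did not overlap, though vehicle 3 lay barely above propolis 3, its partner on slide 2. The difference was -0.32, with an interval of -0.74 to 0.10 (limma adjusted p = 0.570), and was -0.47 on slide 1 and -0.02 on slide 2. The second Siglech probe was at -2.86, -0.89 and -1.22 in propolis arrays, against -1.32, -0.82 and -0.69 in vehicle arrays. Its groups overlapped, and propolis 1 lay far below the other arrays, so that its difference of -0.71 had the widest interval of the set, -1.97 to 0.55. Both probes carry the same RefSeq accession and were read well above background on all 6 arrays. The sequences of the probes were not used here. Which Siglech transcripts each probe reads, and which cells of the unsorted fraction they came from, was not tested.

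Bst2 encodes tetherin, a membrane protein that holds budding viruses, marks plasmacytoid cells in untreated mice and is induced by interferon in many cell types. It was at 4.08, 4.02 and 3.91 in propolis arrays, against 3.90, 3.58 and 3.93 in vehicle arrays. The groups overlapped and vehicle 2 stood lowest. The difference was 0.20, with an interval of -0.23 to 0.63 (limma adjusted p = 0.747), 0.31 on slide 1 and -0.02 on slide 2. Beside Bst2, whose promoter holds the 2 overlapping interferon cores printed above, 11 of 14 measured interferon-stimulated genes had higher means in propolis, 0 of them past the threshold and 5 with an unadjusted limma p under 0.05, where 7.24% of all genes were higher at that p. The 5 became 2 without vehicle 2, vehicle 3 or propolis 1, and 0 without vehicle 2 and vehicle 3 together. The list was chosen with earlier results of these data known, so that share is description only. The median difference of the 14 genes was 0.50. Without propolis 3, 8 of the 14 had higher and 6 lower means, with a median of 0.49. Without vehicle 2 and vehicle 3 together 8 were higher and 6 lower, with a median of 0.37. How these genes relate to Bst2 was not tested. Oasl2, of the 2',5'-oligoadenylate synthetase family, was at 2.52, 2.10 and 2.73 in propolis arrays and at 1.47, 0.88 and 1.57 in vehicle arrays, a difference of 1.14 (limma adjusted p = 0.154). It is the interferon gene of lowest p and was picked after its values were seen.

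Fscn1 encodes fascin, an actin-bundling protein that dendritic cells gain on maturation and that other cells, such as endothelial and nerve cells, also make. It was at 0.34, 0.42 and 1.30 in propolis arrays, against 0.28, 0.22 and 0.67 in vehicle arrays. The arrays of slide 2, propolis 3 and vehicle 3, were the highest of their groups, and the groups overlapped. The difference was 0.30, with an interval of -0.44 to 1.03 (limma adjusted p = 0.782). It was 0.13 on slide 1 and 0.63 on slide 2, and -0.0097 without propolis 3.

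Beyond these 10, 6 lists of further dendritic cell genes held 75 genes, of which 72 had a probe and 70 were measured. The lists were chosen with earlier results of these data known. Their counts, here and in the list paragraphs below, therefore describe the lists and do not test them against the shares of all genes. Limma called 0 higher and 1 lower, Itgax, where 0.722% and 0.113% of all genes were called. Before adjustment 2 were higher and 20 lower at a p under 0.05, where 7.24% and 4.48% of all genes were. The 20 became 13 without vehicle 1, 11 without vehicle 2, 10 without propolis 1 and 7 without vehicle 1 and vehicle 2 together. Of the 70 genes 54 had lower and 16 higher means, with a median difference of -0.27. Without vehicle 1 and vehicle 2 together 42 had lower and 28 higher means, with a median of -0.15. Without vehicle 2 and vehicle 3 together 52 had lower and 18 higher means, with a median of -0.31. B cell genes stood highest on vehicle 1 and vehicle 2, as described below, and their part in these lists was not tested.

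**Figure D3:**
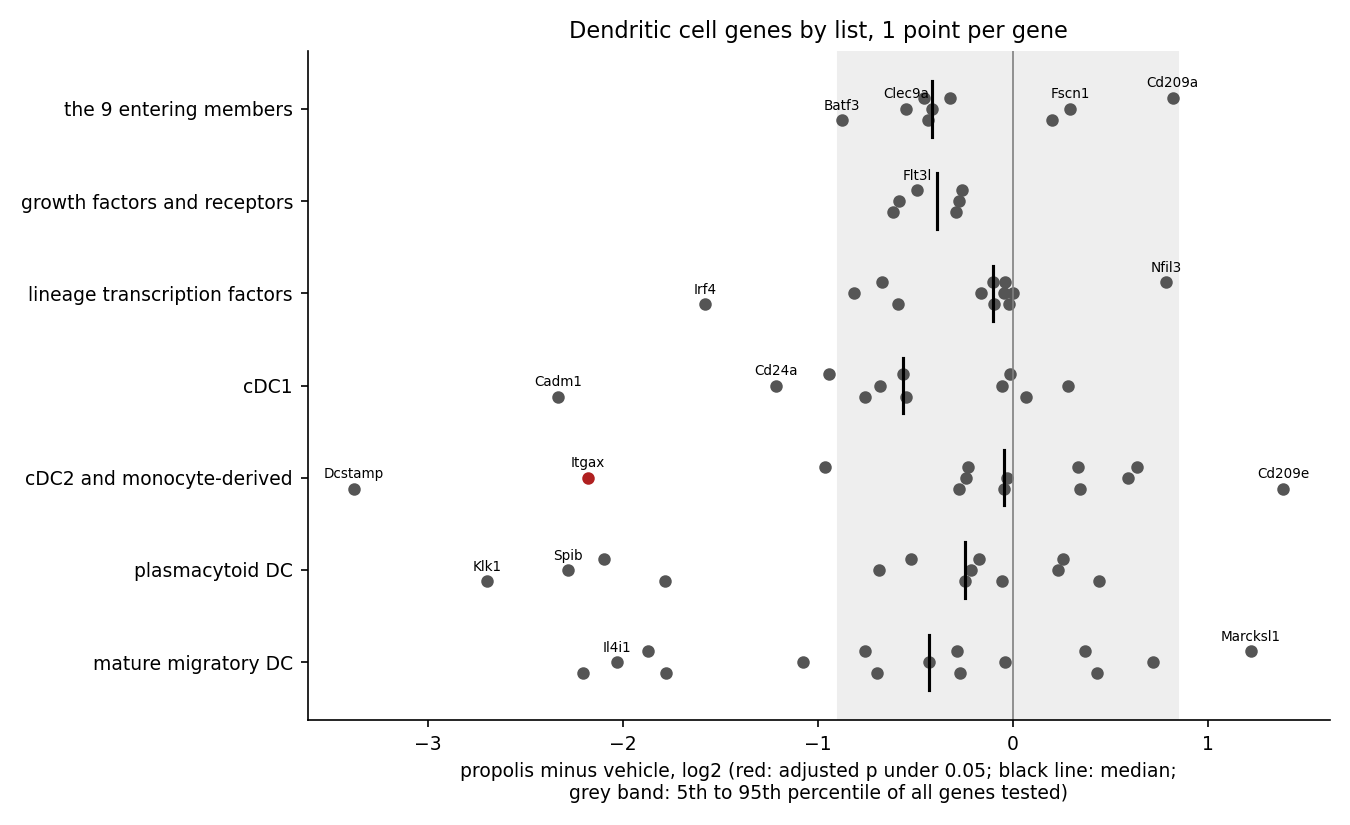
Difference between propolis and vehicle on the log2 scale, 1 point per gene, for the 9 members that entered and for the 6 further lists of dendritic cell genes, with the median of each list as a black line and the range from the 5th to the 95th percentile of all genes in grey. All 9 members lie inside the grey range, and Itgax, in red at -2.18, is the only gene shown that passed.

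Among growth factors and their receptors all 6 measured genes had lower means, none past the threshold, with a median of -0.39, and 4 of 6 had lower means without propolis 1. Flt3l, which encodes the ligand of Flt3, was at 2.00, 2.28 and 2.30 in propolis arrays and at 2.61, 2.76 and 2.67 in vehicle arrays. Its groups did not overlap, and it differed by -0.49 (limma adjusted p = 0.332, and 0.0263 before adjustment). Csf2ra, a receptor chain for GM-CSF, differed by -0.61 (limma adjusted p = 0.267), Csf2rb, its partner chain, by -0.26, Csf2, which encodes GM-CSF, by -0.29, and the stem cell factor receptor gene Kit by -0.58. Of 12 lineage transcription factor genes 10 had lower means, with a median of -0.10, while without vehicle 1 and vehicle 2 together 8 had higher means and the median was 0.04. With 1 array left out that median ran from -0.20 without propolis 1 to -0.07 without vehicle 2. Irf4, which cDC2 need and B and plasma cells also express, was at -2.06, -0.74 and -0.50 in propolis arrays and at 0.15, 0.92 and 0.35 in vehicle arrays, a difference of -1.58 (limma adjusted p = 0.232). Cbfa2t3 differed by -0.82 and Nfil3, a factor early in dendritic cell development, by 0.79.

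Of 11 further cDC1 genes 9 had lower means and 0 passed, with 5 lower at an unadjusted limma p under 0.05, where 4.48% of all genes were, and a median of -0.56. The 5 became 3 without vehicle 1, vehicle 2, propolis 1 or propolis 2, and 2 without propolis 3. Without vehicle 1 and vehicle 2 together 7 were lower and the median was -0.16. Cadm1, an adhesion molecule of cDC1 that stromal and epithelial cells also carry, was at -2.16, -2.72 and -1.45 in propolis arrays and at 0.78, -0.21 and 0.10 in vehicle arrays. Every propolis array lay below every vehicle array, and the difference was -2.33 (limma adjusted p = 0.0669). Cd24a, a surface protein of cDC1, B cells and epithelium, differed by -1.21 (limma adjusted p = 0.133), and Tlr11, a receptor for parasite profilin, by -0.76.

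Among 13 genes of cDC2 and monocyte-derived cells 5 had higher and 8 lower means, with a median of -0.05, which was 0.10 without vehicle 1 and 0.15 without propolis 3. Itgax fell, at 1.54, 1.69 and 2.36 in propolis arrays, against 4.12, 3.64 and 4.37 in vehicle arrays, a 4.53-fold difference (limma adjusted p = 0.0405). Leaving out any of the 6 arrays in turn ended that call (adjusted p = 0.0524 to 0.168), as did the replicate number as a block (adjusted p = 0.0570). Dcstamp, a fusion protein gene of osteoclasts and dendritic cells, was at -3.54, -2.60 and -1.45 in propolis arrays and at 0.89, 0.56 and 1.10 in vehicle arrays, a difference of -3.38 (limma adjusted p = 0.0518). Itgax and Dcstamp are shared with fat macrophages, and which cells their transcripts came from was not tested.

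Of 15 genes of mature migratory cells 11 had lower means and 0 passed, with a median of -0.43 and 7 lower at an unadjusted limma p under 0.05, where 4.48% of all genes were. Those 7 became 3 without propolis 1, 4 without vehicle 2 and 1 without vehicle 1 and vehicle 2 together, and the median was -0.26 without propolis 1 and -0.66 without propolis 2. Il4i1, an amino acid oxidase gene, was at 0.16, 0.94 and 1.21 in propolis arrays and at 2.87, 3.48 and 2.05 in vehicle arrays, a difference of -2.03 (limma adjusted p = 0.121). The chemokine gene Ccl22 was at -6.49, -6.09 and -5.13 in propolis arrays and at -3.87, -3.86 and -4.65 in vehicle arrays. Its values on propolis 1 and propolis 2 lay below the lowest signal well above background there, so no fold is given. Ccl22 was well above background on 4 of 6 arrays, and it is counted among the 7 lower genes here and the 20 of all further lists. Marcksl1 went the other way, by 1.22 (limma adjusted p = 0.153), in the direction of Fscn1. Of 13 further plasmacytoid genes 10 had lower means and 0 passed, with a median of -0.24, which was -0.03 without propolis 1, -0.42 without propolis 2 and -0.62 without propolis 3. The lowest p there belonged to Spib, Bcl11a and Ly6d, which B cells express too, with differences of -2.28, -1.78 and -2.10.

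Markers of other cells also had different means in the 2 groups. B cell genes had lower means in 9 of 9 measured, none past the threshold, and averaged -2.95, -2.53 and -1.81 in propolis arrays, against -0.35, 1.52 and -2.10 in vehicle arrays. Vehicle 1 and vehicle 2 stood far above the rest, while vehicle 3 lay within the propolis range. Cd79b, a chain of the B cell receptor, was at 0.97, 1.72 and 1.67 in propolis arrays and at 3.11, 4.92 and 1.33 in vehicle arrays, and Spib was at -1.77, -1.15 and -1.40 in propolis arrays and at 0.84, 2.81 and -1.13 in vehicle arrays. T cell genes had lower means in 10 of 10, none past the threshold. They averaged -0.50, 0.25 and 0.65 in propolis and 0.92, 1.51 and 0.01 in vehicle. Of these 10 genes 8 had higher means without vehicle 1 and vehicle 2 together, with a median difference of 0.14. All 10 had lower means without vehicle 2 and vehicle 3 together, with a median of -0.79. Without vehicle 1 and vehicle 2 together the differences of Batf3, Irf8, Clec9a and Cd209a were -1.10, -0.41, -0.36 and 0.60, and those of Flt3 and Siglech were -0.22 and -0.10. Without vehicle 2 and vehicle 3 together these differences were, in the same order, -0.88, -0.34, -0.37, 1.14, -0.36 and -0.41. The part of lymphoid transcripts in the further lists, and in Irf8, which B cells also express, was not tested. Mesothelial genes went the other way, with higher means in 8 of 9, of which Bnc1 and Wt1 rose, by 2.87 and 1.98 on the log2 scale (limma adjusted p = 0.0299 and 0.0320). Both were named after their values were seen, and neither passed without vehicle 2, vehicle 3 or any 1 propolis array.

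**Figure D4:**
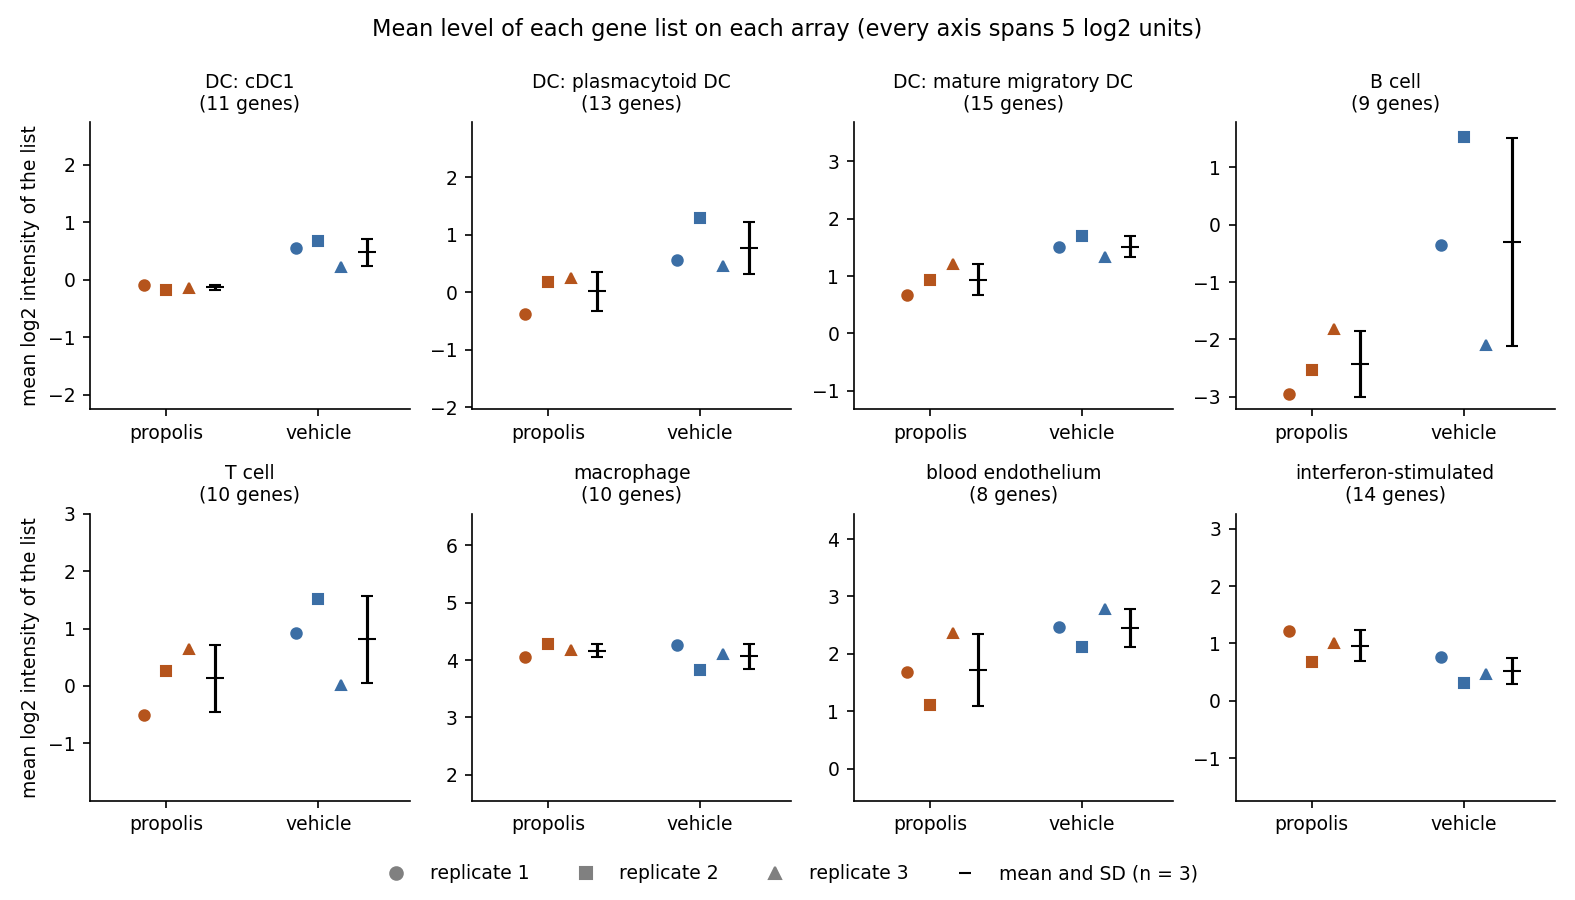
Mean log2 intensity of 8 gene lists on each array, propolis left of vehicle, with 1 marker shape per replicate number and the mean and SD of the 3 arrays. All 3 dendritic cell lists shown are lower on every propolis array than on any vehicle array. The cDC1 list spans -0.17 to -0.09 in propolis against 0.22 to 0.67 in vehicle. The plasmacytoid list spans -0.37 to 0.24 against 0.46 to 1.30, and the mature migratory list 0.67 to 1.21 against 1.34 to 1.70. The plasmacytoid list holds Spib, Bcl11a and Ly6d, which B cells express too, and Klk1, which the pancreas also makes. The B cell list spans -2.95 to -1.81 in propolis and -2.10 to 1.52 in vehicle.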

How the data were processed

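RNA of 6 samples was read on 1-colour Agilent mouse arrays with Feature Extraction 10.7.3.1, per the submitters' processing notes, on an mm9 design per the file headers. The deposited scanner tables hold a background-subtracted intensity on a linear scale, and the raw median signals. The deposited series table holds log2 values, each array shifted so that its 75th percentile lies near 0, as the values show (array medians -3.97 to -3.62). It served as an alternative.

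The intensity was turned to log2, non-uniform spots were left out, spots of a probe averaged, and each array's 75th percentile over probes subtracted. A probe entered if well above background on at least 3 of 6 arrays (34786 did, and 4 with a missing value were dropped), and each gene was read from its brightest entering probe. Symbols came from RefSeq accessions (GRCm38.p6), and 28446 probes had none. No member spot was flagged or saturated. The groups were set against each other in R 4.3.3 with limma 3.58.1 (lmFit, eBayes, Benjamini-Hochberg over all genes, threshold 0.05). The p-values set each difference against the spread between samples of a group, each from an unknown number of mice. An exact permutation test of 3 against 3 cannot go below 0.1. In 20 simulations on 25777 genes, the share of known changes that limma called was 7.28% at 2-fold, 56.9% at 4-fold and 86.7% at 16-fold, with 4.48% of its calls false.

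The members and lists were chosen with earlier results of these data known. Named genes are the members, Flt3l, Csf2 and the GM-CSF receptor genes, Itgax, in each further dendritic cell list the genes that passed and the 3 of lowest p among the rest, and for other cells up to 3 genes of highest level in lists that move with a member (Cd79b is given). Other lists held plasma cell, natural killer, neutrophil, lymph node stroma, mesothelial and nerve genes, with median differences of 0.29, 0.11, 0.60, 0.55, 1.71 and -0.29. Alternatives covered background correction, scaling, filter, flags, probe rule, the series table, weights for arrays, the variance model, a slide or replicate block, slide 1 alone and arrays left out. The planned background correction used median signals.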

Additional observations from a re-analysis of the deposited data

How the results depend on the processing

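Over the 21 alternatives, 0 of the members passed in 20 (limma, with 0 to 4 at an unadjusted p under 0.05). With array weights 2 passed, Cd209a at 1.18 and Batf3 at -0.78. That fit gave vehicle 1 a weight of 8.28 and propolis 3 one of 0.292, and it called 3231 of all genes. Of the 9 members that entered, 8 kept their direction in all 21, and Fscn1 turned to -0.0097 without propolis 3, against up to 0.47 with another array left out. Flt3 ran from -0.66 to -0.20, Zbtb46 from -0.74 to -0.30, Clec9a from -0.66 to -0.36, Batf3 from -1.10 to -0.61, Irf8 from -0.53 to -0.21, Siglech from -0.52 to -0.10, Cd209a from 0.60 to 1.18 and Bst2 from 0.07 to 0.31. Of all genes, limma called 215, against 106 with no filter on dim probes, 11 to 94 with 1 array left out, and 0 on slide 1 alone (5856 at an unadjusted p under 0.05), without vehicle 2 and vehicle 3 (1363) and without vehicle 1 and vehicle 2 (2094). In the last pair of settings the lone vehicle array is assumed to vary like the propolis arrays. The labels do not say that replicate numbers pair samples, deviations of same-numbered samples correlated at 0.0359, 0.291 and 0.135, and not every sample correlated best with its own number. A replicate block called 73 of all genes and 0 members. The further dendritic cell lists, refitted in settings chosen after seeing the data, held 1 called gene, against 2 with slide as a block (Itgax and Dcstamp), 0 with the replicate block and 0 without either pair of vehicle arrays. With 1 array left out they held 0 to 1, Klk1 without vehicle 1 and Dcstamp without propolis 3. Klk1, which the pancreas also makes, was at -3.58 to -3.17 in propolis and at -3.85, 0.82 and 1.19 in vehicle. The cause of these shifts was not tested. With 3 arrays per group, changes of the size seen here are rarely called, and signal over background limits Xcr1.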
